A study of Mus musculus with 16 samples.

Results

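The small nucleolar RNA (snoRNA) genes were taken as every gene whose symbol starts with Snord (box C/D class) or Snora (box H/ACA class) on a probe set with 1 gene symbol, with the probe set of highest mean signal used for each gene. This gave 73 genes of the 22180 measured, 47 of box C/D and 26 of box H/ACA. Expression was measured on 16 arrays of mouse bone marrow progenitors sorted from wild-type C57BL/6 mice. Antibiotic water held ampicillin, metronidazole, neomycin and vancomycin, each at 1 g/L, was given for 3 weeks, and, like the control water, contained 2% sucrose. All progenitors were lineage-negative, c-Kit-positive and CD105-negative. Common myeloid progenitors (CMPs) were CD115-negative with intermediate CD16/32, granulocyte-monocyte progenitors (GMPs) were CD115-negative with high CD16/32, and committed monocyte progenitors (cMoPs) were positive for CD115 and Ly6C. CMPs had 3 arrays for either water. GMPs and cMoPs had 3 arrays after antibiotic water and 2 after control water. The age and sex of the mice are not among the labels, and the labels do not say whether an array is 1 mouse or a pool. The p-values therefore measure only the spread between these samples, which may be technical.

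Box C/D snoRNAs are bound by fibrillarin, Nop56, Nop58 and Snu13 and guide 2'-O-methylation of ribosomal RNA by base pairing. Box H/ACA snoRNAs are bound by dyskerin, Nhp2, Nop10 and Gar1 and guide the conversion of uridine to pseudouridine. A few snoRNAs instead act in the cleavage of the ribosomal RNA precursor, among them Snord118 (U8), Snord22 (U22) and Snora73a and Snora73b (U17). Snord13 (U13) pairs with the 18S ribosomal RNA and is needed for its acetylation by Nat10. Most mammalian snoRNAs are cut from introns of a host gene, often a ribosomal protein gene or a Snhg gene, a long non-coding RNA with little other known product. Snord13 and Snord118 are known exceptions with promoters of their own.

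Of 7 genes examined beside the sort gate, some followed the labels, while Eng differed between progenitors that were sorted alike for its protein. Csf1r, which encodes CD115, had log2 signals of 9.18 to 9.49 in cMoPs and 6.42 to 7.92 in CMPs and GMPs. Fcgr3, one of the receptors seen by the CD16/32 antibody, had 9.28 to 9.90 in GMPs and cMoPs and 6.23 to 7.12 in CMPs. Ly6c2, a gene of the Ly6C antigen, had 12.66 to 12.76 in cMoPs, 12.49 to 12.65 in GMPs and 9.46 to 10.89 in CMPs, and was not called between cMoPs and GMPs. Eng, which encodes CD105, was highest in CMPs (7.75 to 8.65) against 6.19 to 7.33 in the other progenitors, although all were sorted as CD105-negative. Kit, which encodes c-Kit, had means of 10.51 in CMPs, 10.03 in GMPs and 9.41 in cMoPs. It was called in each progenitor comparison, with means far above the array medians in all progenitors, which were sorted as c-Kit-positive. In the same order, means were 5.09, 7.17 and 6.76 for Fcgr2b and 10.71, 10.24 and 10.57 for Cd34, whose protein is not among the gate markers given above. The median signal of the arrays lay between 4.04 and 4.17. The CMP arrays also carried erythroid and megakaryocyte transcripts: the mean of the 3 measured erythroid genes (Car2, Klf1 and Epor) ranged from 8.63 to 9.30 in CMPs, 5.75 to 6.02 in GMPs and 4.92 to 5.44 in cMoPs. The mean of 3 megakaryocyte genes (Itga2b, Pf4 and Vwf) ranged from 6.89 to 7.48, 5.29 to 6.05 and 3.88 to 4.37 in the same order. The mean of 6 neutrophil genes ranged from 9.13 to 9.69 in CMPs, 8.96 to 9.12 in GMPs and 8.71 to 8.96 in cMoPs, with 4 of them called lower and 1 higher in GMPs than in CMPs, and 5 called lower in cMoPs. No gene of these 3 lists was called between waters. Of the other marker lists, Cpa3, a mast cell protease gene, rose after antibiotics by 0.81 ± 0.12 (limma adjusted p = 0.0143). H2-Ab1, an MHC class II gene of antigen-presenting cells, rose by 0.43 ± 0.10 (limma adjusted p = 0.192). They were 1 of 3 mast cell and basophil genes and 1 of 6 macrophage and dendritic genes. The mean of the 3 mast cell and basophil genes ranged from 7.09 to 7.47 against 7.35 to 7.81 in CMPs, 8.45 to 8.64 against 8.69 to 9.01 in GMPs and 5.28 to 5.96 against 5.76 to 5.89 in cMoPs, with control before antibiotic water. The part of such cells in the results below was not tested.

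Of the snoRNA genes, 63 had a mean over all arrays above that of the median gene (4.42), 39 of box C/D and 24 of box H/ACA. The genes of highest mean signal were Snord104 (11.79), Snord13 (11.01), Snord118 (9.13), Snord49b (9.10) and Snord17 (8.47) in box C/D. In box H/ACA they were Snora33 (10.19), Snora73b (9.73), Snora21 (8.76), Snora7a (8.45) and Snora23 (8.45). Signals of different probe sets do not rank the abundance of different RNAs. Snord90 (2.22), Snord1b (2.90) and Snord91a (3.33) had the lowest means of their class, and Snora35 (2.62), Snora15 (2.64) and Snora19 (4.49) the lowest of theirs. The array lower quartiles were 2.89 to 2.99, so Snord90, Snord1b, Snora35 and Snora15 were not shown to be above background. For a snoRNA inside an intron, the values do not tell the mature RNA from unspliced RNA of the host. In bulk arrays, fewer cells of a type and less RNA per cell cannot be told apart.

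snoRNA genes varied more between replicate arrays than other genes. The SD within groups had a median of 0.519 over the box C/D genes and 0.456 over the box H/ACA genes, against 0.212 over all genes and 0.200 over genes brighter than the median gene. It exceeded the all-gene median for 43 of 47 box C/D and 25 of 26 box H/ACA genes. Snord104 had the lowest value of all snoRNA genes (0.087) and Snord61 the highest (1.29). The RefSeq gene lengths had a median of 68 bases in box C/D and 118.5 bases in box H/ACA.

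The effect of antibiotic water averaged over the 3 progenitors addressed which genes differ between treated and control mice. Snord13 had the smallest p of all 22180 genes in this comparison. Of the 73 snoRNA genes, 2 rose (Snord13 and Snord72) and 1 fell (Snord118), with limma at an adjusted p under 0.2, and all 3 were box C/D genes. Over all genes, 0.514% were called, 0.271% higher and 0.243% lower. None of the 26 box H/ACA genes was called by limma, and their smallest adjusted p was 0.303. Of them, 5 (19.2%) had an unadjusted p under 0.05, against 9.5% of all genes. The median difference was 0.098 over box C/D (33 of 47 above 0) and 0.071 over box H/ACA (16 of 26 above 0), against -0.013 over all genes (45.8% above 0). The arrays of lowest mean signal over the snoRNA genes, cMoP control 1 (6.052) and GMP control 1 (6.082), were both control arrays.

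In CMPs the log2 signal of Snord13 was 10.90, 11.14 and 10.97 with control water and 11.61, 11.45 and 11.51 after antibiotics. In GMPs it was 10.71 and 10.26 against 11.91, 11.87 and 11.68. In cMoPs it was 9.96 and 9.72 against 10.58, 10.81 and 11.04. Every antibiotic array thus lay above every control array of the same progenitor. The log2 difference was 0.52 ± 0.15 (SE) for CMPs, 1.34 ± 0.17 for GMPs and 0.97 ± 0.17 for cMoPs. Their mean was 0.94 ± 0.09, a 1.92-fold rise (limma adjusted p = 0.000892, 95% interval 0.742 to 1.141). Within single progenitors Snord13 was called in GMPs (limma adjusted p = 0.00932) and cMoPs (0.122) but not in CMPs (0.421). The interaction of water and progenitor was not called for it (limma adjusted p = 0.701), so a difference in size between progenitors was not shown. The call on the mean held without any 1 array, at adjusted p up to 0.0223 over the alternatives run. The cMoP call was lost without cMoP control 1 (limma adjusted p = 0.409), cMoP antibiotic 2 (0.264), cMoP antibiotic 3 (0.322) or CMP antibiotic 2 (0.208). It was also lost with the replicate block (0.247), every probe set tested (0.254), the plain 2-way analysis of variance (0.278) and cMoP arrays alone (0.485). In CMPs, Snord13 was called with trended and robust variances (limma adjusted p = 0.169). In GMPs it was not called when the fit held only the GMP arrays (0.350).

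Snord118, the U8 RNA needed to mature the 5.8S and 28S ribosomal RNAs, moved the other way. In CMPs its signal was 9.79, 9.87 and 9.56 with control water and 8.60, 8.36 and 8.75 after antibiotics. In GMPs it was 9.11 and 9.72 against 8.92, 8.70 and 9.05, and in cMoPs 9.72 and 9.81 against 9.08, 7.74 and 9.36. The antibiotic arrays lay below the control arrays in each progenitor, narrowly so in GMPs, and cMoP antibiotic 2 lay more than 1 log2 unit below the other cMoP arrays. The mean difference was -0.91 ± 0.19, a 1.88-fold fall (limma adjusted p = 0.119). The values were -1.17 ± 0.30 in CMPs, -0.53 ± 0.34 for GMPs and -1.04 ± 0.34 for cMoPs, none of them called within its progenitor. The fall was not called without CMP antibiotic 1 (limma adjusted p = 0.207), GMP antibiotic 2 (0.225), cMoP control 1 (0.235), CMP control 1 (0.203) or GMP control 2 (0.264), nor with every probe set tested (0.243) or by the plain 2-way analysis of variance (0.234). Without cMoP antibiotic 2 the fall within CMPs was called (0.0463).

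Snord72, a box C/D snoRNA inside the ribosomal protein gene Rpl37, had signals of 4.85, 5.45 and 6.30 in control CMPs and 6.88, 6.63 and 6.12 after antibiotics. GMPs gave 4.11 and 4.30 against 5.89, 5.06 and 5.54, and cMoPs 3.49 and 4.71 against 5.18, 5.56 and 4.55. The groups were separate in GMPs and overlapped by 1 array in CMPs and in cMoPs. The mean difference was 1.10 ± 0.23 (limma adjusted p = 0.123), and the within-progenitor values were 1.01 ± 0.37 (CMPs), 1.29 ± 0.42 (GMPs) and 1.00 ± 0.42 (cMoPs). Rpl37 itself differed by 0.14 and was not called (limma adjusted p = 0.687). Its group means were only 5.51 to 6.00, so this says little about the host RNA. The Snord72 call was lost in 9 of 16 fits that left out 1 array, at adjusted p of 0.203 to 0.321. The arrays in question were GMP control 1 and 2, CMP control 1, cMoP control 1, CMP antibiotic 1 and 2, GMP antibiotic 1, and cMoP antibiotic 1 and 2. The call was also lost with every probe set tested (0.261) and by the plain 2-way analysis of variance (0.251). With cMoP control 2 left out, 5 snoRNA genes were called in place of 3. With CMP antibiotic 1, cMoP control 1, CMP control 1 or GMP control 2 left out, 1 was called.

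Snord104 was higher after antibiotics on every array of each progenitor, without reaching the threshold. Its signals were 11.76, 11.84 and 11.72 against 12.00, 12.03 and 11.92 in CMPs. They were 11.56 and 11.64 against 11.91, 11.98 and 11.71 in GMPs, and 11.49 and 11.61 against 11.73, 11.88 and 11.79 in cMoPs. The difference was 0.24 ± 0.07 (limma adjusted p = 0.273), and the call was made in 3 alternatives: genes above the median level (0.141), trended and robust variances (0.0180) and the plain 2-way analysis of variance (0.117). Snord13 and Snord104 were the 2 snoRNA genes whose antibiotic arrays lay above the control arrays in each of the 3 progenitors, which 0.153% of all genes did. Snord118 was the 1 snoRNA gene with the reverse, which 0.252% of all genes showed.

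**Figure D1:**
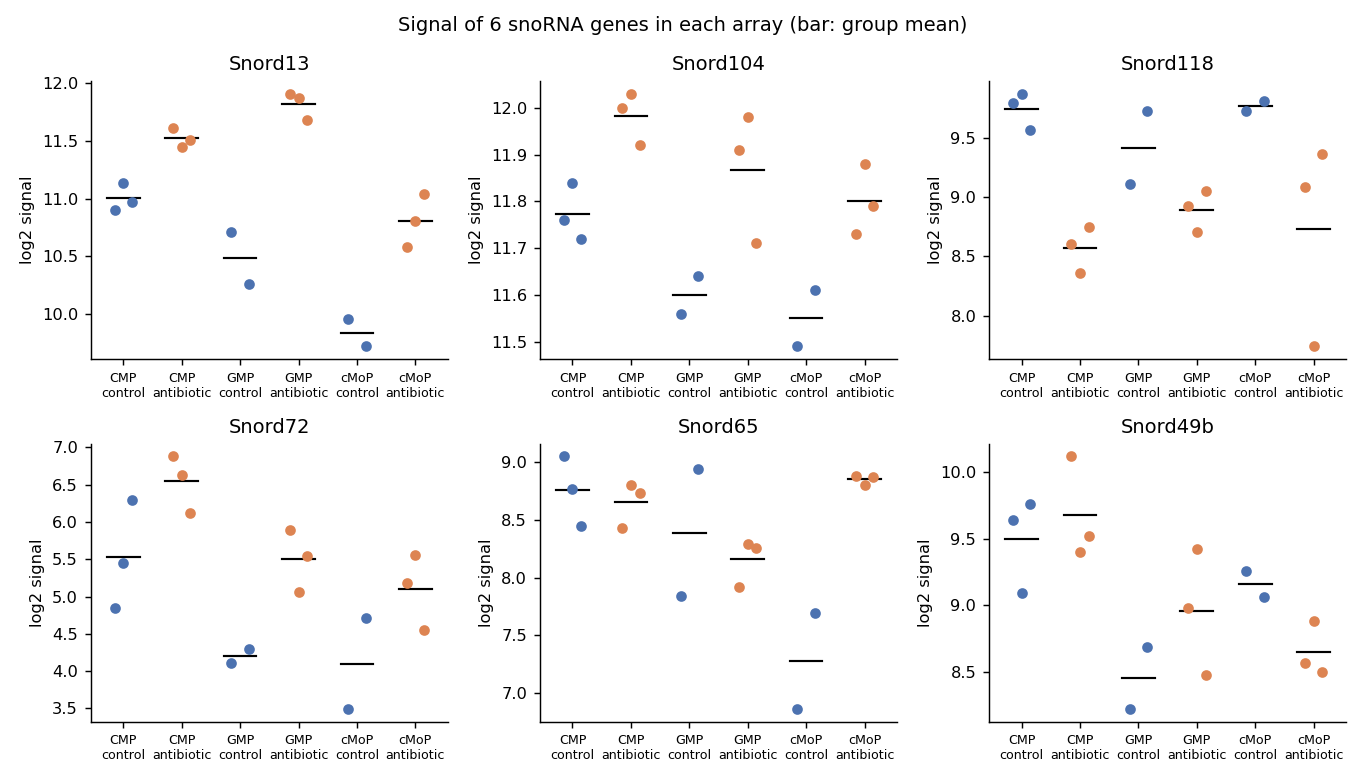
Log2 signal on each array for Snord13, Snord104, Snord118, Snord72, Snord65 and Snord49b in the 6 groups of progenitor and water; points are arrays, blue for control and orange for antibiotic water, bars are group means, and the vertical axis of each panel has its own range. Snord13 and Snord104 were higher after antibiotics in each progenitor, Snord118 was lower, and Snord65 stood apart between waters in cMoPs alone among these groups.

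Within CMPs no snoRNA gene was called by limma, against 0.0406% of all genes. Of the 73, 10 (13.7%) had an unadjusted p under 0.05, against 7.2% of all genes. The smallest adjusted p was 0.357, and 1 was called with trended and robust variances. Within GMPs 1 was called (Snord13, higher), against 0.0721% of all genes called and 0.0496% called higher. Within cMoPs 2 were called (Snord13 and Snord65, both higher), against 0.131% of all genes called and 0.0902% called higher. No snoRNA gene was called for the interaction by limma, against 0.00451% of all genes. There, 7 snoRNA genes (9.6%) had an unadjusted p under 0.05, against 5.8% of all genes. Calls on snoRNA genes appeared without GMP control 1 or without cMoP control 2, each of which leaves 1 control array in its group. Without cMoP control 2, 4 were called within cMoPs.

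Separate antibiotic and control arrays within a progenitor were seen for called and uncalled snoRNA genes. In CMPs the antibiotic arrays lay above the control arrays for 9 of 73 genes and below them for 2, against 5.21% and 6.36% of all genes. In GMPs this held for 8 (the called Snord13 among them) and 7, against 10.4% and 12.6%. In cMoPs it held for 7 (the called Snord13 and Snord65 among them) and 7, against 9.59% and 11.4%. Snora16a and Snora30, both box H/ACA, were separate and higher in CMPs and in GMPs. Snora30 had 5.37, 6.03 and 5.91 in control CMPs and 6.88, 6.47 and 7.10 after antibiotics, and 5.68 and 5.92 against 6.23, 7.14 and 6.24 in GMPs. In cMoPs its control arrays were 5.26 and 6.92 and enclosed the antibiotic arrays of 6.07, 6.54 and 6.56. Snora47 was separate and lower in CMPs, at 8.27, 8.98 and 8.21 against 7.31, 7.78 and 8.12, and in GMPs, at 8.61 and 8.49 against 8.46, 7.94 and 7.79. Its cMoP groups overlapped. These 3 genes were picked after their values were seen.

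Snord65 rose in cMoPs by 1.58 ± 0.29, a 2.98-fold change (limma adjusted p = 0.122). Its signals were 6.86 and 7.69 in the control cMoPs and 8.88, 8.80 and 8.87 after antibiotics. The control arrays of cMoPs were far apart and both lay below all antibiotic arrays. The difference was -0.10 ± 0.26 in CMPs and -0.23 ± 0.29 in GMPs, neither called, and the interaction was not called (limma adjusted p = 0.579). Without cMoP control 1 the cMoP difference was no longer called (limma adjusted p = 0.962), nor without cMoP antibiotic 1 (0.386), 2 (0.270) or 3 (0.322) or CMP antibiotic 2 (0.208). It was also not called with every probe set tested (0.290), by the plain 2-way analysis of variance (0.363) or with cMoP arrays alone (0.360).

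Snord65 lies in the non-coding gene 2410006H16Rik together with Snord49a and Snord49b. In cMoPs, Snord49a gave 5.61 and 6.81 with control water and 6.53, 7.30 and 6.85 after antibiotics, a difference of 0.68 ± 0.36 with overlapping groups. Snord49b gave 9.26 and 9.06 against 8.57, 8.88 and 8.50, a difference of -0.51 ± 0.28 with all antibiotic arrays lower. The gene that holds them differed by 0.24 ± 0.14. None of these 3 differences was called, and in cMoPs Snord65 and Snord49b, from 1 host gene, had opposite signs.

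**Figure D2:**
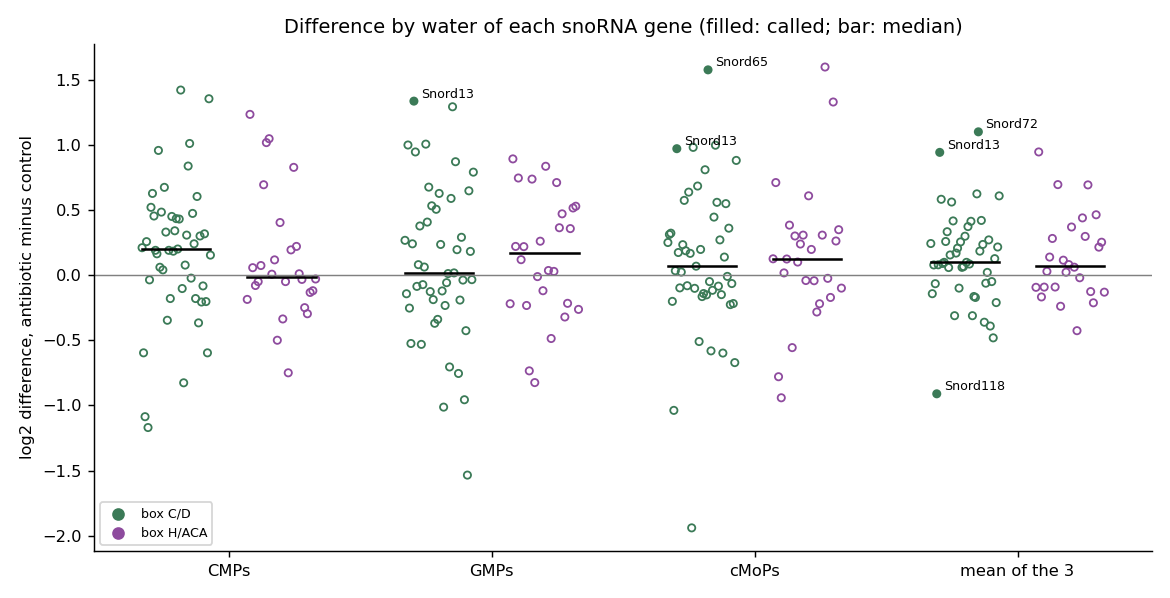
Log2 difference between antibiotic and control water for each of the 73 snoRNA genes, within CMPs, GMPs and cMoPs and as the mean of the 3; filled points were called by limma at an adjusted p under 0.2, open points were not, and bars are medians of the 47 box C/D (green) and 26 box H/ACA (purple) genes. Called genes were Snord13, Snord72 and Snord118 for the mean, Snord13 in GMPs, and Snord13 and Snord65 in cMoPs.

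Differences between progenitors were averaged over both waters and called at an adjusted p under 0.05. snoRNA genes were mostly higher in CMPs than in either later progenitor: 55 of 73 had their highest mean in CMPs (75.3%), against 31.4% of all genes. The share was 36 of 47 in box C/D and 19 of 26 in box H/ACA. By array, the mean signal over the snoRNA genes was 6.43 to 6.70 in CMPs, 6.08 to 6.46 in GMPs and 6.05 to 6.36 in cMoPs, so CMPs overlapped GMPs narrowly and lay above all cMoPs. It was lowest on cMoP control 1 (6.052), where 18 of the 73 genes had their lowest value, and on GMP control 1 (6.082), where 11 did. The mean over all genes lay between 5.05 and 5.09 on every array.

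**Figure D3:**
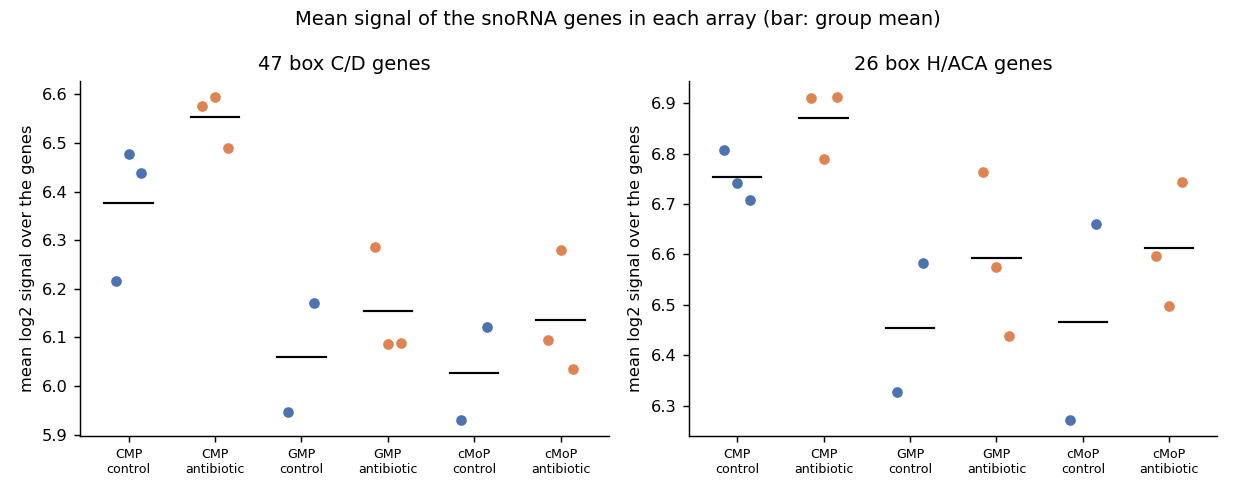
Mean log2 signal over the 47 box C/D genes and over the 26 box H/ACA genes on each array of the 6 groups; points are arrays, blue for control and orange for antibiotic water, and bars are group means. The CMP group means lie highest in both panels, some single CMP arrays lie below the highest GMP and cMoP arrays, and GMP control 1 and cMoP control 1 are the lowest arrays in both.

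In GMPs against CMPs, 8 snoRNA genes were called (11.0% of 73), 7 lower and 1 higher in GMPs, against 16.0% of all genes, 8.17% lower and 7.87% higher. The share called was thus below that of all genes, while the direction was mostly one way. The difference was below 0 for 42 of 47 box C/D genes (median -0.38) and 20 of 26 box H/ACA genes (median -0.29), against 45.4% of all genes (median 0.025). Without GMP control 1 the box C/D median was -0.203.

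Snora69, a box H/ACA snoRNA inside the ribosomal protein gene Rpl39, was lower by 1.37 ± 0.36 in GMPs (limma adjusted p = 0.0138). Its lowest, median and highest signals were 4.94, 5.72 and 6.78 over CMPs and 3.18, 4.78 and 5.24 over GMPs. Snord72 ranged over 4.85, 6.21 and 6.88 in CMPs and 4.11, 5.06 and 5.89 in GMPs (difference -1.19 ± 0.28, limma adjusted p = 0.00714). The ranges of both genes overlapped between the progenitors. Snord49a ranged over 6.66, 7.31 and 7.93 in CMPs and 5.71, 6.25 and 6.69 in GMPs (-1.04 ± 0.24, limma adjusted p = 0.00608). Snord49b ranged over 9.09, 9.58 and 10.12 and over 8.22, 8.69 and 9.42 (-0.88 ± 0.19, limma adjusted p = 0.00316). Both thus fell together with 2410006H16Rik, the gene that holds them, which fell by 0.58 (limma adjusted p = 0.000246). Snord52, in 1110038B12Rik, was lower by 0.65, Snord47, in Gas5, by 0.62, and Snord22, the U22 RNA in Snhg1, by 0.38. Of 11 snoRNA genes with a difference above 0, Snord55 was the 1 called higher. It rose by 0.59, from 4.66, 5.24 and 5.43 in CMPs to 5.43, 5.75 and 6.16 in GMPs. Every GMP array lay below every CMP array for Snord17 and Snord52, 2 of 73 genes against 5.75% of all genes, and 0 genes showed the reverse, against 5.49%. Snord72, Snord49a and Snord49b were called under all 25 alternatives. The call on Snora69 was lost without GMP control 1 (limma adjusted p = 0.114) and by the plain 2-way analysis of variance (adjusted p = 0.0609), and those on Snord47 (0.0754) and Snord55 (0.0556) without GMP control 2. That on Snord22 was lost without GMP control 2 (0.103), CMP control 3 (0.0613) or GMP antibiotic 3 (0.0516). That on Snord52 was lost without GMP control 1 (0.146), CMP control 2 (0.0544), CMP control 3 (0.0693), CMP antibiotic 1 (0.0825), GMP antibiotic 1 (0.0669) or GMP antibiotic 3 (0.0846). The Snord52 call was also lost with the replicate block (0.0513), every probe set tested (0.0808) and the plain 2-way analysis of variance (0.0899).

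In cMoPs against CMPs, 15 snoRNA genes were called (20.5% of 73), 14 lower and 1 higher in cMoPs, against 18.9% of all genes, 9.2% lower and 9.72% higher. The difference was below 0 for 39 of 47 box C/D genes (median -0.378) and 20 of 26 box H/ACA genes (median -0.162), against 41.9% of all genes (median 0.044). Snord72 fell furthest, by 1.44 ± 0.28 (limma adjusted p = 0.00134), to 3.49, 4.71 and 5.56 over cMoPs as the lowest, median and highest arrays. Snord19, in the nucleolar GTPase gene Gnl3, fell by 1.35 ± 0.35, from 5.56, 5.78 and 6.37 to 3.16, 4.51 and 5.54, with no overlap. Its lowest array was cMoP control 1. Snora69 fell by 1.35 to 3.40, 4.86 and 5.60, Snord42b, in Rpl23a, by 1.10 to 3.90, 4.54 and 5.81, and Snora2b, in Kansl2, by 1.09 to 3.33, 4.61 and 4.85. The ranges of these 3 genes overlapped with those in CMPs. Snord13 fell by 0.94 ± 0.11 (limma adjusted p = 1.23e-05), Snord49a by 0.76 and Snord82, in the nucleolin gene Ncl, by 0.70. The other 6 genes called lower fell by 0.51 to 0.68. Of 14 genes with a difference above 0, Snora68 was the 1 called higher, by 0.47 (0.343 to 0.603 over the alternatives). Snora68 lost its call without cMoP antibiotic 1, CMP antibiotic 1, CMP antibiotic 2 or cMoP control 1. It is named here after its value was seen. Snord47 and Snord19 were the 2 genes with every cMoP array below every CMP array, which 6.33% of all genes showed, and 0 showed the reverse, against 6.87%.

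The calls in cMoPs changed when single arrays were left out. Without cMoP control 1, which leaves 1 control array of cMoPs, fewer snoRNA genes were called in cMoPs against CMPs. Fewer of all genes were called as well. Snord19 was then not called, nor were Snora2b, Snord49a, Snord82, Snord65, Snord47, Snord87, Snora33 and Snora68. Without cMoP control 2, which also leaves 1 control array of cMoPs, the calls on Snora69, Snord42b, Snora2b, Snord82, Snord49b and Snora33 were lost. Snora2b also lost its call without CMP antibiotic 1, cMoP antibiotic 3 or CMP control 2 (0.0560 to 0.0605). Snord82 lost its call without cMoP antibiotic 1 or 3, CMP antibiotic 2 or CMP control 3 (0.0580 to 0.0642). Snord49a lost its call without cMoP antibiotic 1 or 3, CMP antibiotic 1 or 3, or CMP control 2 or 3 (0.0580 to 0.0913). By the plain 2-way analysis of variance, Snord19 (0.0511), Snora69 (0.0571), Snord42b (0.0545), Snora2b (0.0813), Snord49a (0.102), Snord82 (0.0728), Snord49b (0.0511), Snord65 (0.0742) and Snora33 (0.0765) were not called. With every probe set tested, Snora2b (0.0630), Snord49a (0.0871), Snord82 (0.0619), Snord65 (0.0651) and Snora33 (0.0724) were not called, nor was Snord49a with CMP and cMoP arrays alone (0.0563). Snord72, Snord13 and Snord22 were called under all 25 alternatives. GMPs and cMoPs were compared with the same CMP arrays, and 6 genes were called in both comparisons, 75.0% of the 8 and 40.0% of the 15.

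In cMoPs against GMPs, 1 snoRNA gene was called (1.37% of 73), against 5.42% of all genes, 2.82% lower and 2.6% higher. It was Snord13, which was lower in cMoPs by 0.83 ± 0.12 (limma adjusted p = 0.00031) and was called under all 25 alternatives. Its signal ranged from 9.72 to 11.04 in cMoPs and from 10.26 to 11.91 in GMPs over both waters, so the ranges overlapped. No snoRNA gene had separate arrays in this comparison, against 3.17% of all genes lower and 3.33% higher. The median difference was 0.008 over box C/D (-0.003 after quantile normalization) and 0.023 over box H/ACA, against 0.013 over all genes. Without cMoP control 2, which leaves 1 control array of cMoPs, more snoRNA genes and fewer of all genes were called.

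**Figure D4:**
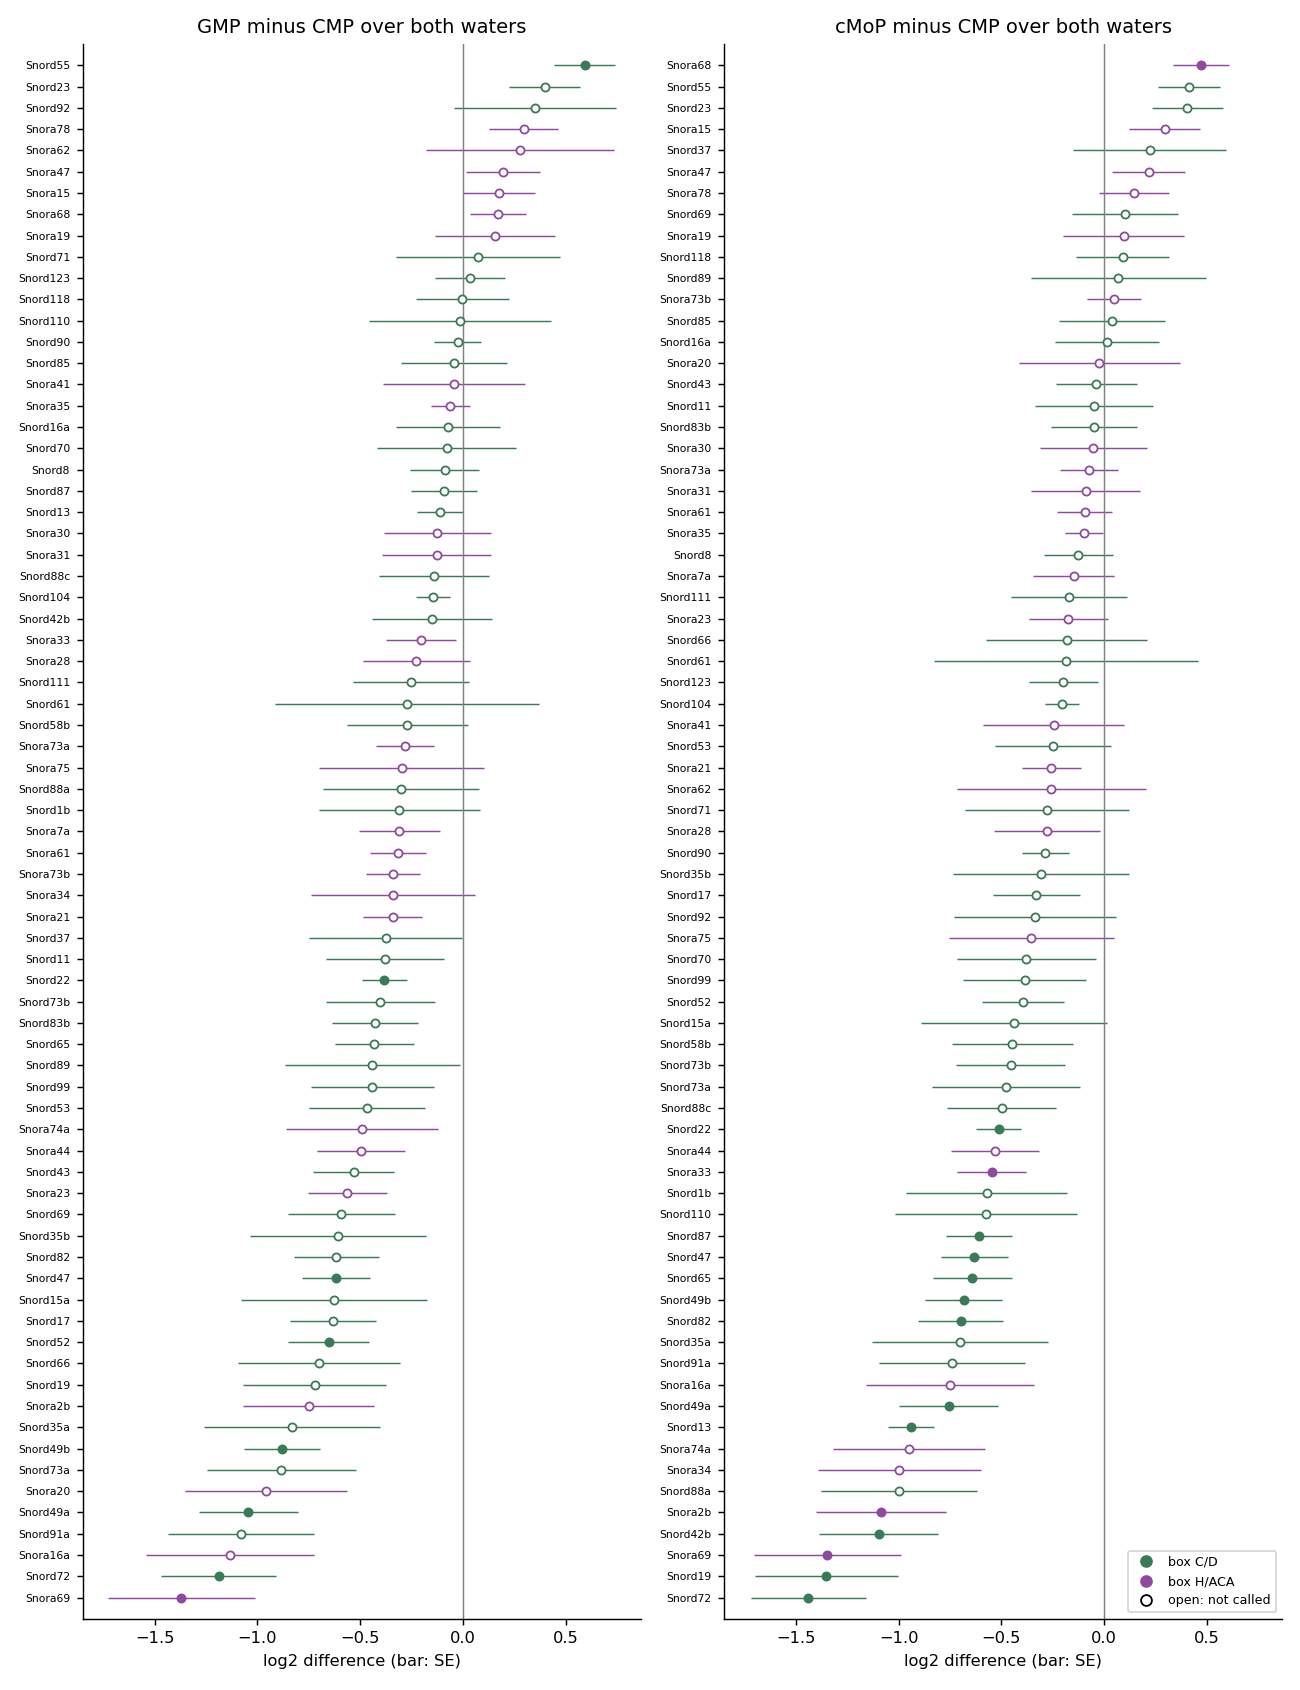
Log2 difference of each of the 73 snoRNA genes between GMPs and CMPs (left) and between cMoPs and CMPs (right), averaged over both waters and sorted by size; points are differences, bars their standard errors, green is box C/D, purple is box H/ACA, and filled points were called by limma at an adjusted p under 0.05. On the left 62 genes and on the right 59 genes lie below 0.

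By coordinates in the RefSeq gene table, 70 of the 73 snoRNA genes lay inside another gene, and 60 inside one that was measured, in 46 such genes. Snord13, Snord118 and Snord89 lay in none. In GMPs against CMPs, 43 of the 46 measured host genes had a difference below 0 (median -0.168), 14 were called lower and 0 higher, against 8.17% and 7.87% of all genes. The snoRNA gene and its host had the same sign in 54 of 60 cases, with r = 0.35 across the 60 genes, which share arrays and in part hosts. In cMoPs against CMPs, 40 of 46 hosts were below 0, and 17 were called lower and 1 higher, against 9.2% and 9.72% of all genes. There, 47 of 60 snoRNA genes had the sign of their host, and r was 0.14. Of the 73 snoRNA genes, 62 in GMPs and 59 in cMoPs also lay below 0. With most genes of both kinds below 0, shared signs are common without a link between a gene and its own host. These counts thus do not show that a snoRNA gene followed its host. Of the called snoRNA genes with a measured host, 3 of 6 in GMPs and 6 of 12 in cMoPs had a host called in the same direction. Hosts of several snoRNAs showed both patterns. In GMPs, Snhg12 fell by 0.47 (limma adjusted p = 0.00103) and its 4 snoRNA genes had differences of -1.13 (Snora16a), -0.50 (Snora44), -0.44 (Snord99) and -0.31 (Snora61), none called. Wdr43, a factor of small-subunit assembly, fell by 0.38 while its snoRNA genes gave -0.47 (Snord53) and 0.35 (Snord92), neither called. Rpl39 (-0.04, limma adjusted p = 0.897) and Rpl37 (-0.26, limma adjusted p = 0.186) were not called, while Snora69 and Snord72 inside them fell. Rpl39 had mean signals of only 4.12 in CMPs and 4.08 in GMPs, near the array medians of 4.04 to 4.17. Rpl37 had 5.81 and 5.55, while hosts of this kind reached 13.25 in CMPs (Rps12). With host signals this low, the absence of a call says little about the host RNA. By water, 0 of 46 hosts were called with limma, and 39 of 60 snoRNA genes had the sign of their host. An unadjusted p under 0.05 was found for 3 of the 46 hosts, against 9.5% of all genes.

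**Figure D5:**
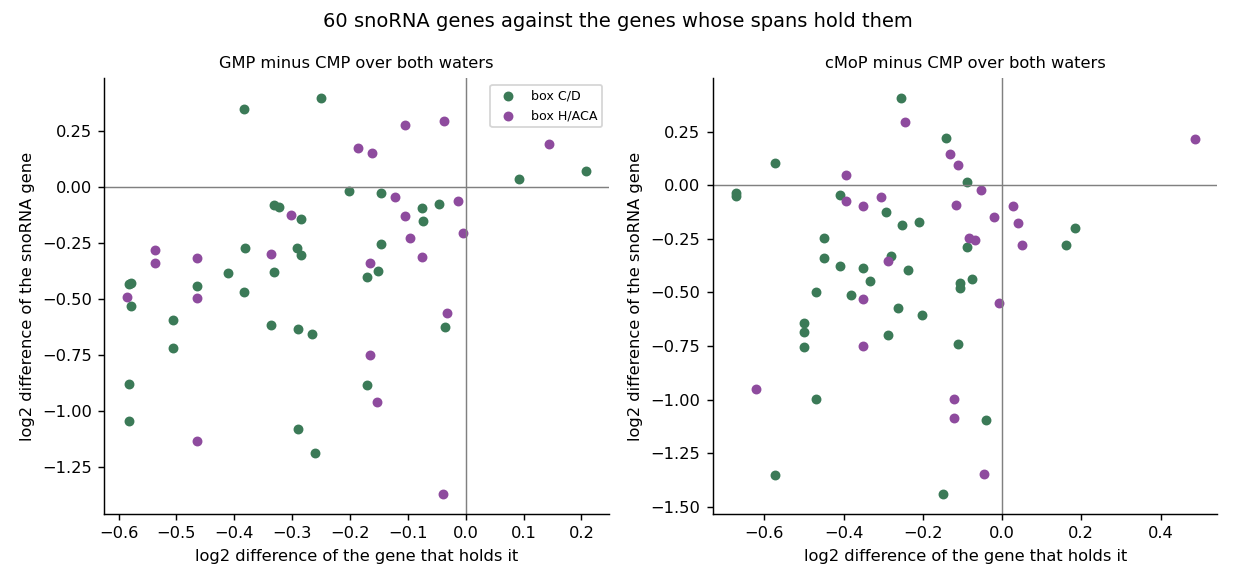
Log2 difference of the 60 snoRNA genes that lie in a measured gene (vertical axis) against that of the gene that holds them (horizontal axis), for GMPs minus CMPs (left) and cMoPs minus CMPs (right); each point is a snoRNA gene, green for box C/D and purple for box H/ACA. Most points lie at negative values on both axes, 54 of 60 pairs on the left and 47 of 60 on the right having the same sign. With most genes of both kinds below 0, a shared sign is common without a link between a gene and its own host.

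Genes for ribosomal proteins and many snoRNA hosts are known to start transcription at a cytosine within a run of pyrimidines, the 5' terminal oligopyrimidine tract. The 30 bases around the listed RefSeq start (GRCm38.p6) are shown for the hosts of the snoRNA genes called lower in GMPs. Hosts that fell can thus be read beside hosts that were not called. Gas5 was not among the measured hosts and belongs to neither kind. Each is written 5' to 3' on the gene's strand, and capitals mark the longest run made of a C followed by at least 4 bases that are each C or T, searched on that strand only.
2410006H16Rik (Snord49a, Snord49b, Snord65), chr11:62602862-62602891, plus strand: tcacgcgccgtCTTTCTCTgcggccatcat
Gas5 (Snord47), chr1:161035151-161035180, plus strand: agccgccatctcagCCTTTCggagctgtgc
1110038B12Rik (Snord52), chr17:34952454-34952483, minus strand: gggcggcacacgggtCTCTTTgtgcacccg
Rpl39 (Snora69), chrX:37085208-37085237, minus strand: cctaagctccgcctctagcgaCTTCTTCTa
Rpl37 (Snord72), chr15:5116598-5116627, plus strand: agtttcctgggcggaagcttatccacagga
Snhg1 (Snord22), chr19:8723472-8723501, plus strand: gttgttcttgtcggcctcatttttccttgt
Rpl39 also holds a shorter run that is not in capitals.
Gas5, other listed start, chr1:161034586-161034615, plus strand: agggggcgggcccgcgagctcgacagcccg
This other start of Gas5 held no such run. The other listed start of 1110038B12Rik, not shown, overlaps the window above and holds the same run. Relative to the listed start, the capital run began at -4 in 2410006H16Rik, -1 in Gas5, 0 in 1110038B12Rik and 6 in Rpl39. Such a run was found at 23 of 49 listed starts of snoRNA hosts (46.9%). Over all genes in the table it was found at 11948 of 32851 starts (36.4%). A match describes these letters only and does not show a tract at the start of the RNA. Both 2410006H16Rik, with a match, and Snhg1, without one, were called lower in GMPs. The Snhg1 and Rpl37 windows hold runs of T and C that start with T, which the rule does not count.

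Of the proteins that bind the mature snoRNAs, 3 box C/D and 4 box H/ACA core proteins were measured. Nop58 was called lower in GMPs than in CMPs, and Nop58 and Nop56 were called lower in cMoPs, with Nop56 lower by 0.26 ± 0.08 (limma adjusted p = 0.0291). No box H/ACA core protein gene was called between progenitors. Nhp2 was the 1 core protein gene called between waters and fell by 0.36 ± 0.08 after antibiotics (limma adjusted p = 0.133). Of 12 snoRNP assembly genes, 3 were called lower in GMPs than in CMPs: Znhit6 (-0.48), Tgs1 (-0.40) and Ruvbl1 (-0.38). Tgs1 adds the trimethyl cap of independently transcribed snoRNAs. In cMoPs, Ruvbl1 (-0.32) and Tgs1 (-0.31) were called lower than in CMPs and Nufip1 (0.49) higher. Of 10 partners in ribosomal RNA processing, Nop14, Wdr43 and Nop2 were called lower in GMPs, and these 3 and Nat10 in cMoPs. Over all genes 8.17% were called lower in GMPs and 9.2% in cMoPs. Nat10, the acetyltransferase that works with Snord13, was lower by 0.49 ± 0.11 in cMoPs (limma adjusted p = 0.00411). It was not called between waters.

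Of 15 measured Snhg genes, 7 were called lower in GMPs than in CMPs and 8 in cMoPs, with 0 called higher in either. Over all genes 8.17% and 9.2% were called lower. Snhg3, the host of Snora73a and Snora73b, fell by 0.54 in GMPs (limma adjusted p = 0.00015), and the 2 snoRNA genes had differences of -0.28 and -0.34, neither called. Snhg4 fell by 0.59 in GMPs and 0.62 in cMoPs. By water, 14 of the 15 had a difference above 0 (median 0.134), and none was called by limma. The unadjusted limma p was under 0.05 for 3 of them, Snhg12 (0.0213), Snhg15 (0.0287) and Snhg4 (0.0478), against 9.5% of all genes. Small Cajal body RNAs are relatives of snoRNAs that guide the modification of spliceosomal RNAs. Of 5 measured, Scarna10 was called lower in GMPs than in CMPs (-0.79 ± 0.24). In cMoPs Scarna10 (-1.12), Scarna2 (-0.48) and Scarna6 (-1.42) were called lower than in CMPs, against 9.2% of all genes. The ranges of these 3 overlapped between the progenitors. Scarna6 ranged widely, from 4.19 to 6.48 in CMPs and from 2.87 to 5.00 in cMoPs. None of the 5 was called between waters by limma. The unadjusted p was under 0.05 for 1 of them, Scarna17 (0.00531), against 9.5% of all genes.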

How the data were processed

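RNA was isolated with a Qiagen RNeasy Micro kit, and 2.6 ng of it was amplified (NuGen Ovation Pico WTA) and labelled with biotin, per the labels' protocols. How fully RNAs as short as snoRNAs (gene length medians of 68 and 118.5 bases) were recovered was not tested. Neither was whether that recovery differed between arrays, so the signals need not follow snoRNA abundance. The authors deposited log2 signals for every probe set. The submitters' processing notes name Partek and Transcriptome Analysis Console as the tools. The genome build, normalization, summarisation and tool versions were not given in the sources used here. Of 41345 probe sets, 23521 carried 1 gene symbol and were used (22180 genes). The probe sets with several symbols (1814) or none (16010) were used in 1 alternative only. No dim gene was removed.

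All 16 arrays entered 1 limma fit of 6 group means, with eBayes and 10 residual degrees of freedom (limma 3.58.1, R 4.3.3). Adjusted p-values are Benjamini-Hochberg over all genes tested, two-sided. The rate was 0.2 for water and 0.05 between progenitors. The study states the rate of 0.2 for a 2-way analysis of variance, not for limma. A plain 2-way analysis of variance was run here as an alternative only. The fit was run on simulated data with independent noise for each gene and array. That simulation cannot show how the fit behaves where many genes of an array shift together. Host genes were found by coordinates in the RefSeq gene table, without strand, which that table does not give. Named genes were the called ones (up to 8 per progenitor comparison), the 5 highest and 3 lowest of each class, and those that share a host with a gene called between waters. The genes and lists were chosen with earlier results of these data known. Whether the labels' replicate numbers pair the arrays was not settled, and the main fit treated the arrays as unpaired. Alternatives were the probe set rule, the features tested, a filter on dim genes, the variance model, normalization, centring, a plain 2-way analysis of variance, a replicate block, the arrays fitted and each array left out.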

Additional observations from a re-analysis of the deposited data

How the results depend on the processing

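Between waters, the count of snoRNA genes called on the mean went from 3 to 1 when every probe set was tested, and ranged from 1 to 5 with 1 array left out. Over all genes it went from 114 to 59 with every probe set, 353 among genes above the median level and 350 with trended and robust variances (41 to 269 with 1 array left out). Within CMPs, 1 snoRNA gene was called with trended and robust variances (0 to 1 with 1 array left out). All genes called there went from 9 to 2 with every probe set, 35 above the median level, 61 with trended variances, 21 after quantile normalization, 15 by the plain analysis of variance, 16 with the replicate block and 1 with CMP arrays alone (2 to 39 with 1 array left out). Within GMPs, the snoRNA count went from 1 to 0 with GMP arrays alone. All genes went from 16 to 27 above the median level, 27 with trended variances, 2 by the plain analysis of variance and 0 with GMP arrays alone (2 to 42 with 1 array left out). The GMP medians ranged from 0.007 to 0.223 in box C/D and from -0.077 to 0.228 in box H/ACA with 1 array left out, and the box C/D median was -0.002 after centring and -0.013 with the block. Within cMoPs, the snoRNA count went from 2 to 0 with every probe set, 0 by the plain analysis of variance, 1 with the replicate block (Snord65, without Snord13) and 0 with cMoP arrays alone (0 to 4 with 1 array left out). All genes went from 29 to 9, 8, 8 and 2 in the same order (3 to 226 with 1 array left out). For the interaction, all genes went from 1 to 2 with every probe set, 3 above the median level, 9 with trended variances, 2 after quantile normalization, 2 after centring, 2 by the plain analysis of variance and 2 with the block (1 to 24 with 1 array left out, and 0 to 2 snoRNA genes).

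Between progenitors, the count in cMoPs against CMPs went from 15 to 7 by the plain analysis of variance (6 to 16 with 1 array left out). It ranged from 1 to 4 in cMoPs against GMPs. The box C/D median in GMPs against CMPs ranged from -0.423 to -0.203. Of the differences that were not called, that of Snord65 within CMPs changed sign without CMP antibiotic 1 (0.008) or CMP control 1 (0.043), in a range of -0.257 to 0.043, and within GMPs without GMP control 2 (-0.783 to 0.317). That of Snord49b between waters changed sign without CMP antibiotic 1 (-0.014), GMP antibiotic 2 (-0.017), CMP control 2 (-0.008) or GMP control 1 (-0.019), in a range of -0.019 to 0.139. The cause of these shifts was not tested.

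The replicate numbers were shared between groups, and the deviations of arrays of 1 number and progenitor gave r = -0.027 to 0.026 over 7 pairs. Arrays of 1 number and water in different progenitors gave r = -0.049 to 0.104 over 15 pairs, 1 of them above 0.1, and 11 of 16 arrays correlated best with their own number. With the replicate block, 3 snoRNA genes were called between waters, 11 in GMPs against CMPs (Snord52 no longer among them), 16 in cMoPs against CMPs and 1 in cMoPs against GMPs, with 0 for the interaction. Over all genes 120 were called between waters and 2 for the interaction. Between progenitors, all genes called were 3427 in GMPs against CMPs, 4120 in cMoPs against CMPs and 1159 in cMoPs against GMPs. Groups of 2 or 3 arrays limit the precision, and the table holds no detection calls.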

Other observations

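A further 43 probe sets carried several symbols that include a snoRNA, and 27 snoRNA symbols occurred on such probe sets only. They were left out of every count above. Of the 43, 16 (all named Gm26504, Snord116l1 and Snord116l2) held 1 shared set of values, which leaves 28 distinct probe sets. Tested among all probe sets with limma, 0 of them were called between waters (smallest adjusted p = 0.415), against 0.143% of the 41345 probe sets on the mean of the progenitors. In GMPs against CMPs 4 were called lower and 0 higher, against 9.32% of all probe sets called in either direction, and 24 of the 28 distinct ones had a difference below 0 (median -0.347). In cMoPs against CMPs 5 were called lower and 0 higher, against 11.5%, and 22 of the 28 were below 0 (median -0.424). In the 3 progenitors taken in pairs, 0 of the 73 snoRNA genes had antibiotic arrays entirely above the control arrays in 1 progenitor and entirely below them in another, which 756 of 22180 genes (3.41%) showed.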
